A study of Homo sapiens with 13 samples.

Results

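The clustered replication-dependent histone genes supply the histone proteins that package newly copied DNA. They were taken as the protein-coding genes of the GENCODE version 44 annotation whose symbols belong to the H1-1 to H1-6, H2AC, H2BC, H3C and H4C series, which gave 69 of 20033 protein-coding genes. By family there were 6 linker histone H1 genes, 17 H2A, 18 H2B, 13 H3 and 15 H4 genes. The peaks considered were those within 1000 bases of each gene in a PTBP1 and a RUNX1 peak list. Of the 69 genes, 55 lie on chromosome 6, 11 and 2 in separate groups on chromosome 1, and H4C16 alone on chromosome 12, so that "clustered" does not describe this gene. H1-6, H2AC1 and H2BC1 are known as testis-expressed members.

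The study mapped chromatin in MOLM-13, a human cell line from acute myeloid leukemia, and the labels name no treatment or engineered allele. It made 13 libraries, namely 2 each for PTBP1 and RUNX1 by CUT&Tag, 1 IgG library by CUT&Tag, and 2 each for PTBP1, RUNX1, H3K27me3 and IgG by CUT&RUN. In CUT&Tag an antibody brings a transposase to the protein on chromatin, which tags the DNA beside it, while CUT&RUN uses a nuclease. PTBP1 is an RNA-binding splicing repressor, RUNX1 is a DNA-binding hematopoietic transcription factor, and the comparison asked where PTBP1 and RUNX1 share chromatin. One PTBP1 list of 9370 peaks and one RUNX1 list of 7688 peaks on the hg38 build were analysed, each a single list for its target, so no value below has a spread between replicates and no test between conditions was possible. Each peak carries a fold enrichment, the ratio of the fragments piled up at its highest point (the summit) to a local background after adding 1 to both. The fewest fragments at any summit were 11 for PTBP1 and 8 for RUNX1, which limits what a missing peak means: a site with fewer fragments would not be listed. At the 5′ ends of 9 myeloid leukemia marker genes and of 7 marker genes of other lineages there were 0 peaks in either list. Over the whole genes, 3 of the 9 myeloid markers had a PTBP1 peak and 3 a RUNX1 peak, against 2 and 1 of the 7 others, so that the cell type rests on the label.

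Replication-dependent histone genes are compact, lack introns as a rule, and are transcribed mainly in S phase, when NPAT gathers on them in nuclear bodies known as histone locus bodies. Their mRNAs end in a stem-loop bound by SLBP in place of a poly(A) tail. Many H2A and H2B genes face away from each other across a short shared promoter with TATA, CCAAT and octamer elements. The octamer is read by the POU factor encoded by POU2F1, and H4 promoters carry a site for HINFP.

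Most of these genes, 55 of 69 (79.7%), had no peak of either list, and neither had 59.8% of all protein-coding genes. A PTBP1 peak lay within 1000 bases of 11 of the 69 genes (15.9%, 95% Wilson interval 9.14 to 26.3%), where 33.4% of all protein-coding genes had one. A RUNX1 peak lay near 11 of 69 (15.9%, 9.14 to 26.3%), against 30.1% of all protein-coding genes. Peaks of both lists were found at 8 of 69 (11.6%, 5.99 to 21.2%), against 23.3%. All 3 intervals end below the share over all genes. They cover counting error only, and genes that stand side by side share peaks, so they are too narrow. The 11 genes with a PTBP1 peak had 6 distinct peaks between them, and so did the 11 with a RUNX1 peak. Merging gene windows that touch left 37 windows, of which 5 held a PTBP1 peak, 6 a RUNX1 peak, 4 both and 30 neither.

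Gene length enters such a count, since the median histone gene here was 503 bases long (386 to 37610) and the median protein-coding gene 27471. A window of fixed size, 1000 bases either side of the annotated 5′ end, gave 10 of 69 genes with a PTBP1 peak (14.5%, 8.07 to 24.7%, against 26.4% of all protein-coding genes). It gave 8 with a RUNX1 peak (11.6%, 5.99 to 21.2%, against 21.3%) and 6 with both (8.7%, 4.05 to 17.7%, against 17.3%). The lower share was thus also present at a fixed window, although the interval for RUNX1 ended just under the share over all genes and that for both lists included it.

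Base composition moved with these counts, and the direction of the comparison turned with it. RefSeq promoters, 250 bases before to 50 after the start on GRCh38.p14, were matched by symbol for 64 of the 69 genes (not H2AC12, H3C11, H3C12, H4C1 and H4C3). Their median G+C content was 43.7% (36.3 to 58.0), against 58.7% over 35116 promoters, and 54 of the 64 were under 50%. Among 2665 protein-coding genes with a promoter under 50% G+C, 5.18% had a PTBP1 peak at the 5′ end, 4.39% a RUNX1 peak and 3.23% both. Of the 54 histone genes under 50%, 9 had a PTBP1 peak (16.7%, 9.02 to 28.7%), 7 a RUNX1 peak (13.0%, 6.42 to 24.4%) and 5 both (9.26%, 4.02 to 19.9%). So the histone genes stood below all genes, while those under 50% stood above the 2665 genes under 50%, a set that includes them. The 9 and the 7 genes rest on 5 distinct peaks in each list. Of the 10 histone genes at 50% or more, H1-1, H1-2, H1-4, H4C8 and 6 genes of repeated sequence described below, 0 had a peak of either list at the 5′ end, where 32% of 12680 genes had a PTBP1 peak and 26.2% a RUNX1 peak. The limit of 50% was chosen after the values were seen, and the part of base composition in the counts was not tested.

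**Figure D1:**
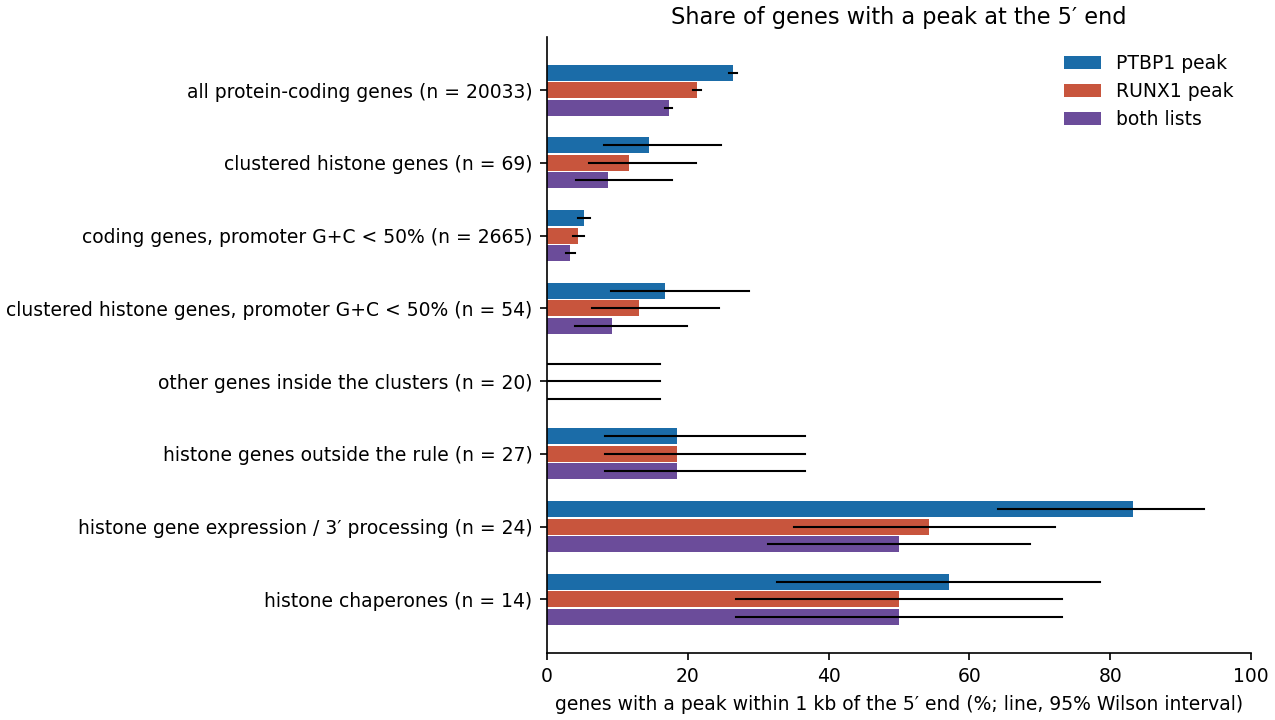
Share of genes with a PTBP1 peak, a RUNX1 peak or both within 1000 bases of the 5′ end (x axis, percent), for all protein-coding genes, the clustered histone genes, both groups limited to promoters under 50% G+C, and the comparison lists. Bars are shares and lines are 95% Wilson intervals. The 69 histone genes (14.5% PTBP1) lie below all genes (26.4%), and factors that act on histone genes reach 83.3%. The 54 with a promoter under 50% G+C (16.7%) lie above all protein-coding genes with such a promoter (5.18%), which include them.

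The 14 genes with a peak fell into 3 classes. Both lists had a peak near H2AC20, H2AC21, H2AC25, H2BC26, H3C1, H4C1, H2BC11 and H2AC11. Only the PTBP1 list had one near H2BC18, H3C13 and H2BC21, and only the RUNX1 list near H1-4, H2BC5 and H4C4. By family, 4 of 17 H2A genes, 4 of 18 H2B, 2 of 13 H3, 1 of 15 H4 and 0 of 6 H1 genes had a PTBP1 peak. For RUNX1 the counts were 4 of 17 H2A, 3 of 18 H2B, 1 of 13 H3, 2 of 15 H4 and 1 of 6 H1 genes. Over all protein-coding genes the shares were 33.4% for PTBP1 and 30.1% for RUNX1. The highest family share, that of H2A, was 23.5% in each list. With families this small the intervals overlap widely, from 0 to 39.0% for H1 and from 9.56 to 47.3% for H2A in the PTBP1 list.

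The strongest PTBP1 peak at a histone gene lay between H2AC25 and H2BC26, a divergent H2A and H2B pair on the long arm of chromosome 1. It spanned chr1:228457295-228459374 with a fold enrichment of 37.2 from 63 fragments at the summit, which ranked 665 of 9370 and above 92.8% of the list. A RUNX1 peak lay within it at chr1:228457432-228458654, with a fold enrichment of 18.8 from 24 fragments. The summits were 7 bases apart, the PTBP1 summit 39 bases and the RUNX1 summit 32 bases upstream of the H2AC25 start. This was the one site of the group at which both lists were above their own medians, 12.2 for PTBP1 and 15.0 for RUNX1. A second, weak PTBP1 peak at chr1:228452276-228452627 (fold enrichment 8.72, 14 fragments) lay inside the H2AC25 gene, outside its canonical transcript.

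The pair H2BC11 and H2AC11 on chromosome 6 was the other divergent pair with peaks between its starts. The PTBP1 peak, chr6:27132752-27133047, had a fold enrichment of 11.05 from 18 fragments and its summit 10 bases upstream of the H2BC11 start. The RUNX1 peak, chr6:27132552-27132894, had a fold enrichment of 9.02 from 11 fragments and its summit 40 bases into H2BC11, in the 5′ UTR. These summits were 50 bases apart. The stretches between the paired starts are shown because the PTBP1 summits of both pairs fall inside them, in hg38 on the plus strand, chr1:228457874-228458102 and chr6:27132796-27133042. Capitals mark the TATA box (TATAAA), the CCAAT box (CCAAT), the octamer (ATTTGCAT) and the RUNX motif (written as TGTGGT or TGCGGT), each on either strand.
H2AC25-H2BC26: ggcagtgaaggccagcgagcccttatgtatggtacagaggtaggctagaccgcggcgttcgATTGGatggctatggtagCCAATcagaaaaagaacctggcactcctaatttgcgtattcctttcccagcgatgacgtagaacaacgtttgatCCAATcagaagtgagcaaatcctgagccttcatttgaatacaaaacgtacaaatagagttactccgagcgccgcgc
H2BC11-H2AC11: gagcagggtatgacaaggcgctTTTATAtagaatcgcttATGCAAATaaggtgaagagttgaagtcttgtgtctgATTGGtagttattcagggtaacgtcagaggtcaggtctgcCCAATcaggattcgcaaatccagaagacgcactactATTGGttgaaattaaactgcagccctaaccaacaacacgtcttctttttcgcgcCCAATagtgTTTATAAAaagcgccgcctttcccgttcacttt
The first stretch, 229 bases, holds 3 CCAAT boxes and none of the other 3 motifs. Its PTBP1 summit is base 39 and its RUNX1 summit base 32, counted from the left. The second, 247 bases, holds 4 CCAAT boxes, 3 TATA matches of which 2 overlap, and 1 octamer beginning at base 40, and its PTBP1 summit is base 10. Its RUNX1 summit falls 40 bases to the left of the stretch. Neither holds a RUNX motif. Across the group there were 12 divergent pairs with starts 170 to 979 bases apart (median 238), 11 of them H2A with H2B. A peak between the starts was present in 2 of 12 pairs in each list, the same 2 pairs. The share over divergent pairs of other genes is not given here.

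RUNX1 enrichment among the histone genes was highest at H4C4, at 19.5 from 25 fragments (chr6:26188507-26189431). It lay 69 bases into the gene, in the coding exon, and no PTBP1 peak accompanied it. H4C1 was the other H4 gene with a RUNX1 peak, chr6:26021452-26022087, with a fold enrichment of 12.03 from 15 fragments and a summit 44 bases into the gene, also in the coding exon. There a PTBP1 peak, chr6:26021416-26021742, had a fold enrichment of 9.30 from 15 fragments and its summit 230 bases upstream of H4C1. The 2 summits at H4C1 were 274 bases apart, the widest gap among the shared sites, and the neighbouring H3C1 counts in both lists only through these peaks.

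The H4C4 promoter is printed with that of H4C5, the nearest H4 gene on the chromosome without a peak, so that both can be read side by side. Both are RefSeq promoters on GRCh38.p14, 300 bases each, H4C4 on the minus strand at chr6:26189063-26189362 and H4C5 on the plus strand at chr6:26204360-26204659, with capitals as above.
H4C4: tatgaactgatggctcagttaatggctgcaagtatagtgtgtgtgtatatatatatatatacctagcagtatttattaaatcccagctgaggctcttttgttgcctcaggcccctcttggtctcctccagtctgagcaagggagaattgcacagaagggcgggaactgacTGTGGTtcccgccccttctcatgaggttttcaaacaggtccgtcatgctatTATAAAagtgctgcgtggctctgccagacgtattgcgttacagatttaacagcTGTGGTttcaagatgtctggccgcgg
H4C5: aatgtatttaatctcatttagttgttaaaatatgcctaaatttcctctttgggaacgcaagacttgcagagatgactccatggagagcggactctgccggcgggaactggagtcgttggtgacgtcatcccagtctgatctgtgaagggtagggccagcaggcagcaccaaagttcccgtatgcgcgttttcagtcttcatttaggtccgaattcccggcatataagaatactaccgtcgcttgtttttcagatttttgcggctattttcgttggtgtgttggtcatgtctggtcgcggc
In H4C4 a TATA box begins 29 bases before the start, and RUNX motifs begin 80 bases before it and 24 bases into the gene. H4C5 holds none of the 4 motifs in this window, although its G+C content, 47.7%, is close to the 47.0% of H4C4. H4C4 was the 1 of 13 H4 promoters in the table with a RUNX motif. H4C1, the other H4 gene with a RUNX1 peak, had no promoter in the table and was not scanned there. A RUNX motif lay within 50 bases of its RUNX1 summit.

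The remaining RUNX1-only peak, chr6:26157555-26158189, had a fold enrichment of 9.77 from 12 fragments. Its summit was 236 bases upstream of H2BC5, and it lies 1557 bases from the start of H1-4, beyond the end of that gene. The start of a long noncoding RNA gene, ENSG00000289117, is nearer, 5 bases from the summit, and that of ENSG00000291338, a gene model still to be experimentally established, is 764 bases from it, so the peak cannot be given to 1 gene. The 101 bases centred on the RUNX1 summits of H4C4 and H2BC5 are shown as the windows in which RUNX motifs were counted, in hg38 on the strand of the gene, chr6:26188993-26189093 (minus) and chr6:26157836-26157936 (plus), with the summit at base 51.
H4C4 RUNX1 summit: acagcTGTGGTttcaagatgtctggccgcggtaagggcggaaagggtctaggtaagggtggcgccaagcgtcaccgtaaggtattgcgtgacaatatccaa
H2BC5 RUNX1 summit: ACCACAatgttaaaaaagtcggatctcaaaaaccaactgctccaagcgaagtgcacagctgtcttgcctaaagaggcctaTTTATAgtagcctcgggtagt
A RUNX motif lies in each, beginning at base 6 in H4C4 and at base 1, on the other strand, in H2BC5. It was present at 3 of the 6 RUNX1 summits near histone genes (those at H4C1, H2BC5 and H4C4) and at 24.2% of all 7688 RUNX1 summits. At PTBP1 summits it was present in 0 of 6 and in 8.79% of 9370. A CCAAT box lay within 50 bases of 4 of the 6 PTBP1 summits, against 13.0% of the list, and of 1 of the 6 RUNX1 summits, against 13.4%. Runs of at least 12 pyrimidines, the kind of sequence PTBP1 is known to bind in RNA, were present at 1 of 6 PTBP1 summits and at 14.7% of the list. With 6 summits a list, these are descriptions of single sites.

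In the group of 11 genes on chromosome 1, the site upstream of H2AC21 had the weakest enrichment of both lists at a histone gene. The PTBP1 peak there, chr1:149887386-149888536, reached a fold enrichment of 6.64 although it had 45 fragments, because its background was 8.24 times the usual value of the list. The RUNX1 peak inside it, chr1:149888033-149888504, reached 6.19 from 22 fragments over a background also raised 8.24 times. Their summits were 73 bases apart and lay 313 and 386 bases upstream of H2AC21. BOLA1, a gene outside the group, starts within 1000 bases of both summits, so these peaks can belong to its promoter as well as to H2AC21, and H2AC20 and H2BC21 are counted through the same peaks. Without peaks of raised background, which made up 4.86% (PTBP1) and 5.14% (RUNX1) of all peaks, 8 genes kept a PTBP1 peak and 9 a RUNX1 peak. The share of all protein-coding genes under the same filter is not given here, so these counts cannot be set against it. The other PTBP1 peak of this group, chr1:149812058-149812619, had a fold enrichment of 12.2 from 20 fragments, equal to the list median, and its summit was 64 bases upstream of H2BC18. It brings in H3C13 from the 3′ side, and no RUNX1 peak lay nearer to H2BC18 than 75660 bases.

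Over the 6 distinct peaks in each list, the median fold enrichment was 10.2 for PTBP1 (6.64 to 37.2), against 12.2 for its whole list, and 1 of 6 was above that median. For RUNX1 it was 10.9 (6.19 to 19.5), against 15.0, and 2 of 6 were above. A RUNX1 peak overlapped 4 of the 6 PTBP1 peaks. The same share over the whole PTBP1 list is not given here, so this count does not show whether such overlap is usual. Which target was higher cannot be read across lists, because each has its own depth and usual background, 0.72 fragments for PTBP1 and 0.33 for RUNX1.

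**Figure D2:**
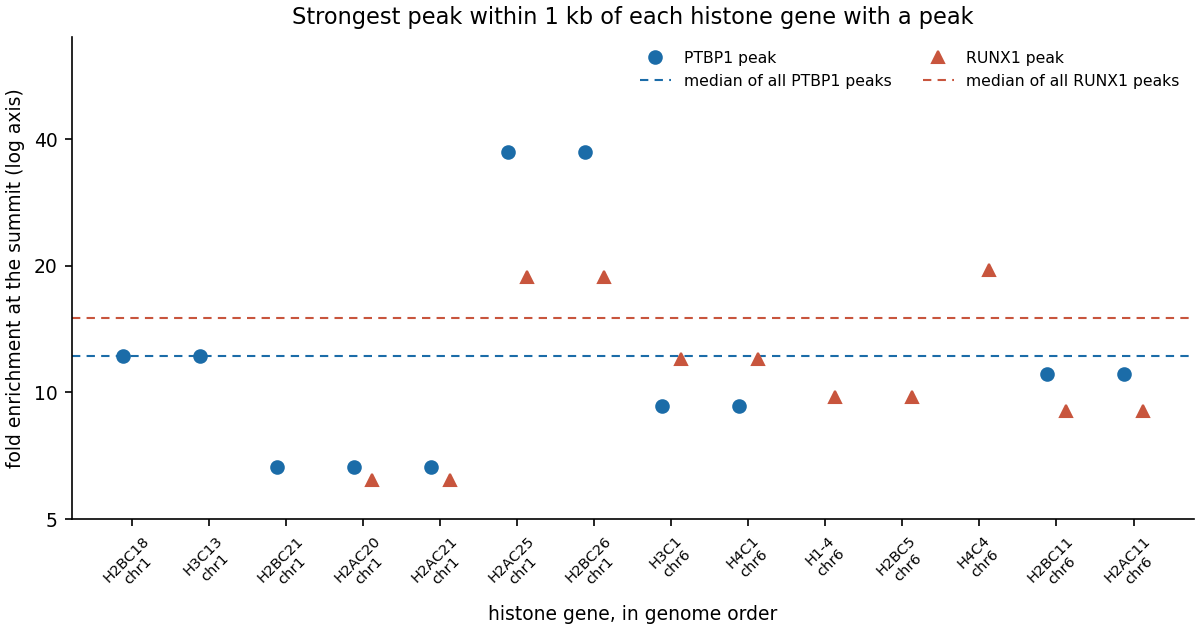
Fold enrichment at the summit (y axis, log scale) of the strongest PTBP1 peak (circles) and RUNX1 peak (triangles) within 1000 bases of each of the 14 histone genes with a peak, in genome order. Dashed lines are the medians of all peaks of each list, 12.2 and 15.0. H2AC25 and H2BC26 share the one site above both lines, H4C4 is the highest RUNX1 value at 19.5, and genes at the same height share a peak.

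The 55 genes with no peak in either list included whole blocks. On chromosome 6 the block from H2BC13 to H2BC17 held 16 genes and 0 peaks. The first block of that chromosome had no peak at H2AC1, H2BC1, H1-1, H4C2, H3C2, H2AC4, H2BC3, H3C3, H1-2, H2BC4, H4C3, H1-6, H2AC6, H2BC6, H3C4, H2AC7, H2BC7, H4C5, H2BC8, H2AC8, H3C6, H1-3, H4C6, H4C7, H3C7, H2BC9, H3C8, H2BC10 and H4C8. The middle block had none at H4C9, H2BC12 and H2AC12. The last block comprised H2BC13, H2AC13, H3C10, H2AC14, H2BC14, H4C11, H4C12, H2AC15, H2BC15, H2AC16, H1-5, H3C11, H4C13, H3C12, H2AC17 and H2BC17. On chromosome 1 there was none at H4C14, H3C14, H2AC18, H2AC19, H3C15 and H4C15, and on chromosome 12 none at H4C16, whose nearest peaks were 512644 bases (PTBP1) and 512742 bases (RUNX1) away. The testis-expressed H1-6, H2AC1 and H2BC1 were among the 55.

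Repeated sequence limits what could be seen at some of the genes. The authors kept reads with a mapping quality over 30, and a read from one of several identical copies does not reach that. For H4C14, H3C14, H2AC18, H2AC19, H3C15 and H4C15, which form 3 near-identical pairs, at most 10.1% of the 150-base words of the gene window occur once in hg38, so that a missing peak there carries little information. Without them 63 genes remained, with 17.5% in each list and 12.7% in both. Over all protein-coding genes the shares were 33.4% for PTBP1, 30.1% for RUNX1 and 23.3% for both. H2BC18 and H3C13, which had a peak, were 67.6% and 82.2% unique by the same measure. For 51 genes every 150-base word was unique, and 41 of these had no peak, where 59.8% of all protein-coding genes had none.

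**Figure D3:**
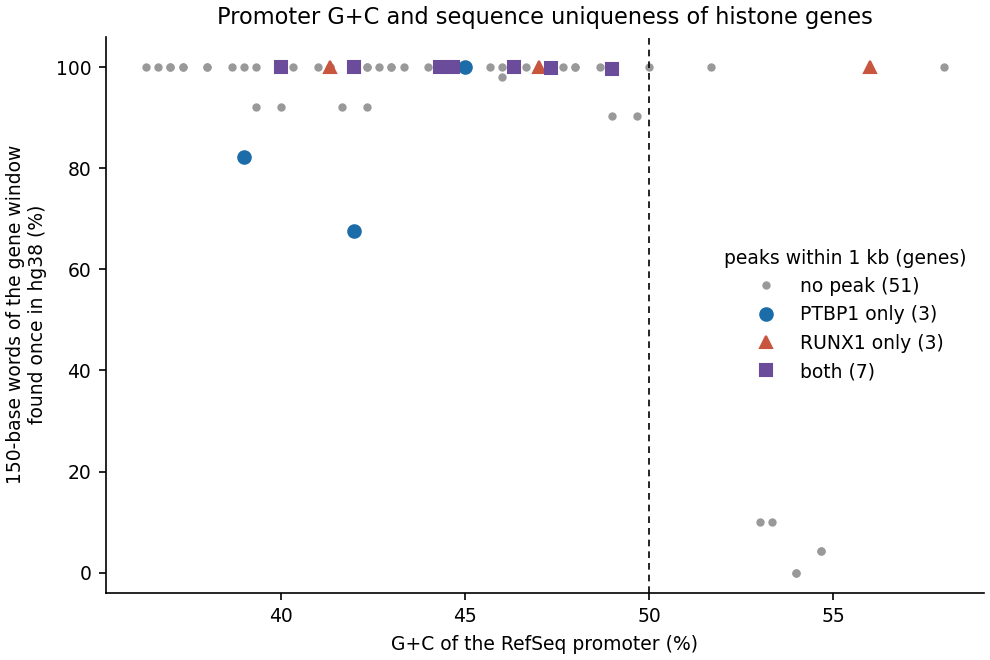
G+C content of the RefSeq promoter (x axis, percent) and share of 150-base words of the gene window that occur once in hg38 (y axis, percent) for the 64 histone genes with a promoter in the table. Each point is a gene, with its shape giving the list or lists with a peak within 1000 bases, and the dashed line is at 50%. The 6 genes at the lower right, at most 10.1% unique, had no peak, while 54 genes lie left of the line.

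The chromosome 6 cluster as a whole held few peaks for its number of protein-coding genes. Between its first and last histone gene, chr6:25723397-27893891, lay 75 protein-coding genes, 4 PTBP1 peaks and 5 RUNX1 peaks. This is 0.0533 PTBP1 and 0.0667 RUNX1 peaks per protein-coding gene, against 0.470 and 0.446 on all of chromosome 6. Per megabase the gap was smaller, 1.84 and 2.30 in the cluster against 2.89 and 2.75 on the chromosome, since the cluster is dense in genes. Over the genome the values were 3.03 and 2.49. The blocks differed, and the cluster also includes the stretches between them. Per megabase the first block held 3.56 PTBP1 and 7.11 RUNX1 peaks, above the chromosome, and the last block 0 of each. The middle block, of 21666 bases, held 46.2 of each, from 1 peak in each list. The 20 other coding genes in this stretch, some of which overlap histone genes, include SLC17A, butyrophilin and zinc finger genes. They had 0 peaks of either list at the 5′ end (Wilson upper limit 16.1%). Over all protein-coding genes 26.4% had a PTBP1 peak there and 21.3% a RUNX1 peak. The highest peak of the cluster was at no histone gene. It was a RUNX1 peak at chr6:25991862-25993260 with a fold enrichment of 42.9, more than any RUNX1 peak at a histone gene, and a PTBP1 peak of 9.30 lay within it. It overlapped the noncoding gene LINC02980, just past the 3′ end of TRIM38, and its summit was 25596 bases from the start of H1-1.

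**Figure D4:**
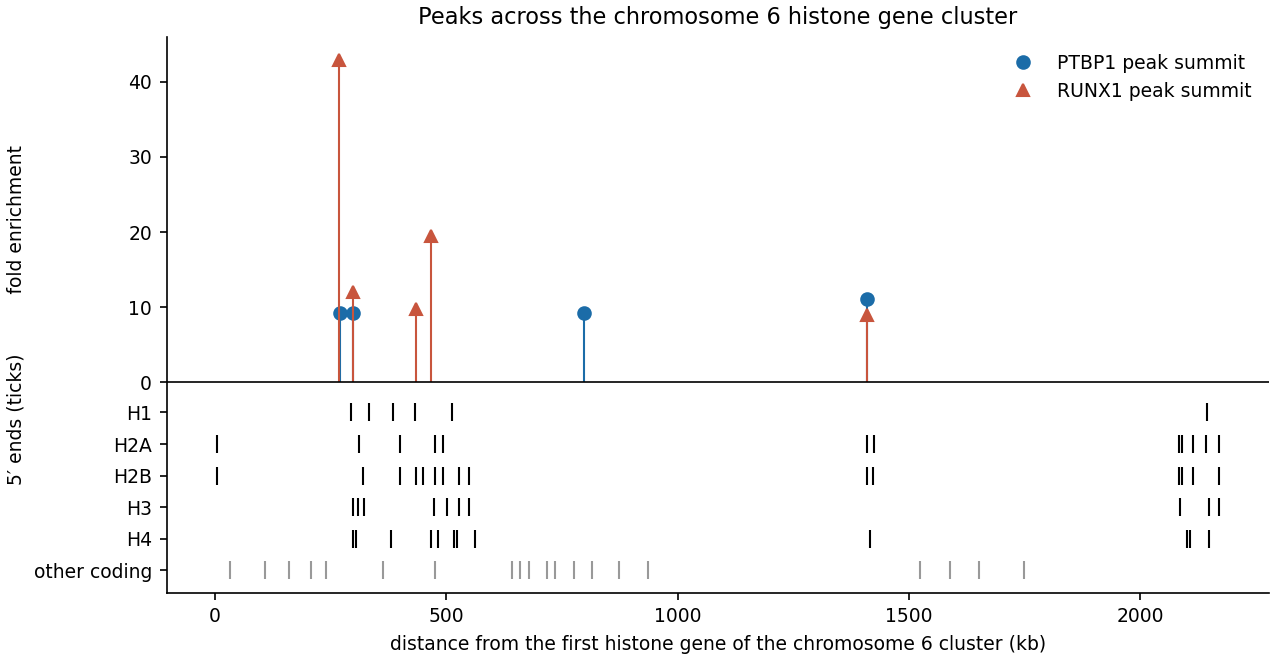
Peaks across the chromosome 6 cluster, by distance from its first histone gene (x axis, kb). Above the line, stems give the fold enrichment at each PTBP1 (circles) and RUNX1 (triangles) summit. Below it, ticks mark the 5′ ends of the histone genes by family and of the 20 other coding genes (grey). The highest stem, a RUNX1 peak of 42.9, stands before most of the first block, and the 16 genes at the right end have no peak.

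From the 5′ ends of the histone genes the nearest PTBP1 peak was a median 167370 bases away, against 63740 for all protein-coding genes. The nearest RUNX1 peak was a median 36972 bases away, against 62818, but both quartiles were farther than over all genes (10012 against 5774 and 265300 against 235665 bases). A RUNX1 peak was over 10000 bases away from 75.4% of the histone genes, against 72% of all genes. As many genes share 1 nearest peak, these medians largely describe the chromosome 6 cluster, where RUNX1 had 4 peaks in the first block and PTBP1 had 2.

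The promoter elements known from histone genes were far more frequent here than over all promoters. A TATA box was found in 43 of 64 promoters (67.2%, against 11.5% of all 35116), a CCAAT box in 54 (84.4%, against 34.6%) and the octamer in 25 (39.1%, against 1.77%). The 2 sets were not matched for G+C, with medians of 43.7% and 58.7%, and its part in these shares was not tested. The RUNX motif was found in 12 of 64 (18.8%, against 19.6%) and pyrimidine runs in 27 (42.2%, against 44.9%), close to the shares over all promoters. The octamer was found in 11 of 16 H2A and 14 of 18 H2B promoters and in 0 of the H1, H3 and H4 promoters. The CCAAT box was in all 16 H2A, 18 H2B, 11 H3 and 6 H1 promoters but in 3 of 13 H4. Paired genes share much of their promoters, so these counts are not of independent sequences. Among the 13 promoters of genes with a peak, 10 held a TATA box, 12 a CCAAT box, 6 the octamer and 4 the RUNX motif, and 4 a pyrimidine run. Among the 51 without a peak the counts were 33, 42, 19, 8 and 23. The RUNX motif was thus in 30.8% of promoters of genes with a peak and 15.7% of those of genes without. Pyrimidine runs, in the opposite direction, were in 30.8% and 45.1%. A peak here is one of either list within 1000 bases of the gene. It need not lie at the promoter, as for H1-4 and H3C13, nor be a RUNX1 peak.

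**Figure D5:**
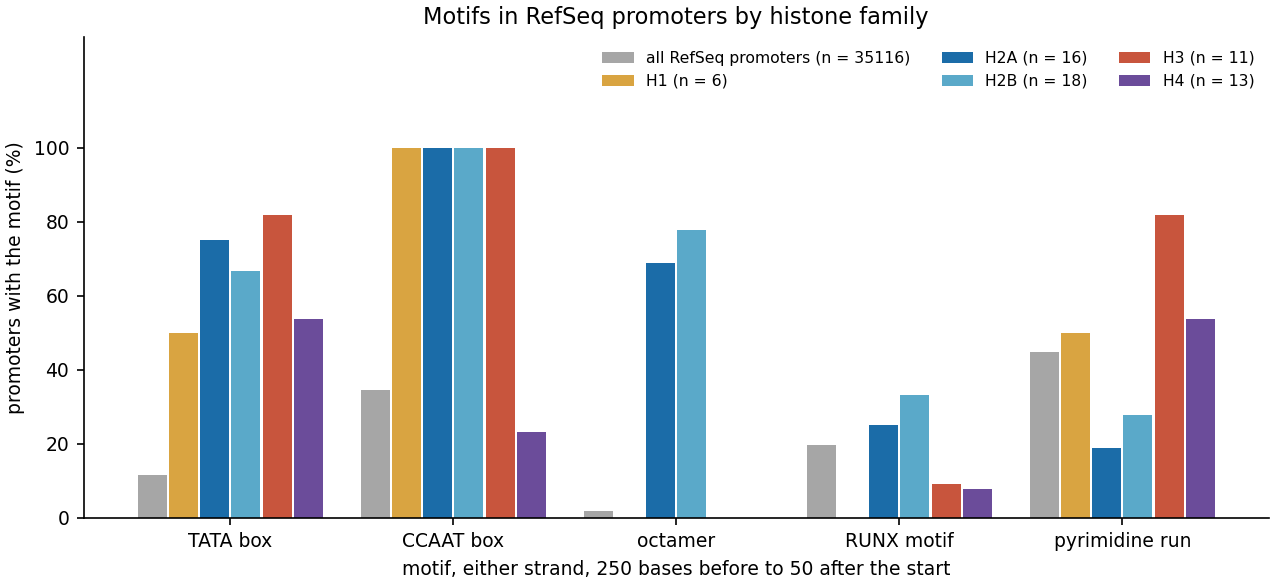
Share of RefSeq promoters (y axis, percent) with each motif on either strand, for all 35116 promoters (grey) and for the histone genes by family. The octamer is seen in H2A and H2B promoters only among the 5 families, at 68.8% and 77.8%, and the CCAAT box in every promoter of H1, H2A, H2B and H3 but in 23.1% of H4 promoters.

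Genes whose products act on the histone genes carried peaks more often than the histone genes themselves. Promoter G+C, with which the counts above moved, was not compared for this list or for the lists that follow. Of 24 factors of histone gene expression and mRNA 3′ processing, 20 had a PTBP1 peak at the 5′ end (83.3%, 64.1 to 93.3%), 13 a RUNX1 peak (54.2%, 35.1 to 72.1%) and 12 both, against 26.4%, 21.3% and 17.3% of all protein-coding genes. SLBP, which binds the stem-loop, had fold enrichments of 58.7 for PTBP1 and 24.1 for RUNX1. NPAT, the coactivator of the histone locus body, had 27.3 and 41.4, and CASP8AP2, another protein of that body, had 16.3 and 14.3. HINFP, the activator of H4 genes, had 31.4 and 15.8, while CRAMP1, which is linked to H1 gene expression, had 48.8 and 24.8. POU2F1 had a PTBP1 peak of 29.6 and no RUNX1 peak at the 5′ end. The factors with no peak of either list there were LSM11, CDK2 and CSTF2, and CDK2 had peaks elsewhere in the gene window.

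Histone chaperones, which carry histones to DNA, had a PTBP1 peak at the 5′ end in 8 of 14 cases (57.1%, 32.6 to 78.6%) and a RUNX1 peak in 7 of 14 (50%, 26.8 to 73.2%). ASF1B had fold enrichments of 47.7 and 21.8, and NASP 30.2 and 14.3. CHAF1A, a subunit of the replication-coupled assembly factor, had a PTBP1 peak of 37.2 and no RUNX1 peak at the 5′ end.

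Histone genes outside the group, most of them coding for variants made through the cell cycle or in the germ line, had a peak of both lists at the 5′ end in 5 of 27 cases (18.5%, 8.18 to 36.7%), close to the share over all genes. These were H3-3A and H3-3B, which code for the replication-independent H3.3, H2AZ1 and H2AZ2, which code for H2A.Z, and H2AX, whose product is phosphorylated at DNA breaks. H3-3B was the strongest for PTBP1, at 85.5, with 41.4 for RUNX1. H2AX had 33.1 and 53.4, H3-3A 25.6 and 26.3, H2AZ2 20.9 and 21.1, and H2AZ1 14.5 and 7.52. Of the 5, H3-3B alone exceeded the PTBP1 value of 37.2 at H2AC25 and H2BC26, and 4 exceeded the highest RUNX1 value at a clustered histone gene, 19.5. These lists were chosen with earlier results of the data known, and no test was made of the differences between them.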

How the data were processed

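Chromatin of MOLM-13 cells was profiled in 13 libraries, and the PTBP1 and RUNX1 peak lists were used. The authors mapped paired reads to hg38 with Bowtie2, kept mapping quality over 30, removed duplicates and ran MACS3 with a q-value limit of 1e-07. As neither list names its assay or replicate, both were treated as CUT&Tag, and pooling is not given in the sources used here. The lists carry no column names. By position and values, the deposited columns were read as a score, the fold enrichment (a ratio), the −log10 p-value and −log10 q-value, and the summit offset. Fold enrichment and −log10 p-value were solved for a whole fragment count and a background. The background took 1 value at 8915 PTBP1 and 7293 RUNX1 peaks and counted as raised above 1.5 times it.

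Genes came from GENCODE version 44 with 1-based coordinates. Uniqueness was counted over 194 hg38 sequences without alternate haplotypes. Named genes were the strongest and weakest members in each list, members off chromosome 6, all without a peak, and fixed lists. The members and lists were chosen with earlier results of these data known. Alternatives covered windows, thresholds, raised background, merged windows, summits and uniqueness, and those on 150-base words and on G+C were chosen after seeing the data. Overlap, distance, pileup, word and motif counts were checked on simulated data. The tools were Python 3.11.15 with scipy 1.17.1, numpy 2.4.6, matplotlib 3.10.9 and pandas 2.3.3.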

Additional observations from a re-analysis of the deposited data

How the results depend on the processing

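Of 59 alternatives over 9 results, 53 stayed within 1.5 times the reported count, or for medians within the bounds of the 6 peaks. The alternatives for medians drew on the same 6 peaks, so they could not leave those bounds and say nothing about stability. They ran from 9.30 to 11.05 for PTBP1 and from 9.77 to 12.03 for RUNX1. Merging gene windows that touch gave 5 windows with a PTBP1 peak, 6 with a RUNX1 peak, 4 with both and 30 with neither, of 37. Genes that share a peak then count once, and adjoining genes without a peak merge as well. These counts are over 37 windows and the reported ones over 69 genes, so the raw counts are not on one base. The same holds for the alternatives limited by uniqueness, over 52 or 61 genes, and by G+C, over 54. For these, a raw count within 1.5 times the reported one does not show that the share was stable. Requiring the peak to overlap the gene itself left 6 genes with a RUNX1 peak and 4 with both. The shares of all protein-coding genes under that rule are not given here. Limiting the genes to promoters under 50% G+C left 9 and 7 of 54 genes with a PTBP1 or RUNX1 peak at the 5′ end, close to the reported counts. Yet the comparison with all protein-coding genes under the same limit then turned direction. No paired analysis was possible because the lists carry no replicate. Depth enters only through the fragments at summits, and sites under 11 (PTBP1) or 8 (RUNX1) fragments could not be seen.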
